A study of Mus musculus with 6 samples.

Results

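The nuclear genes for the subunits of respiratory complexes II, III, IV and V were read on arrays of calf muscle (gastrocnemius) from young and aged mice. The members were the genes that the array platform's table names with a single symbol equal to Sdha, Sdhb, Sdhc, Sdhd or Cyc1, or beginning with Uqcr, Cox4i, Cox5, Cox6, Cox7, Cox8 or Atp5. There were 47 such genes among the 18194 genes named in the table: 4 of complex II, 9 of complex III, 17 of complex IV and 17 of complex V. Each gene was represented by its probe set with the highest mean log2 signal. Of the 47 members 44 passed the filter on dim probe sets, a mean log2 signal of at least 9.08, and 3 did not (Cox4i2, Cox6b2 and Cox7b2).

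All samples were total RNA of gastrocnemius from male C57B1/6 mice with a normal karyotype, and no treatment or engineered allele is named. The young group had 3 arrays (replicates 1, 2 and 3) and the aged group 3 arrays (replicates 51, 52 and 53). How old the mice were is not stated in the labels, nor is it stated that each array is a different animal, so the p-values cover only the spread among these samples, and that spread may be technical. The values are MAS5 signals, linear intensities that had been scaled to the same trimmed mean on each array. The trimmed mean was 1500 on each of the 6 arrays and the median signal ranged from 635 to 832. All 12 skeletal muscle markers passed the filter, and the fast myosin heavy chain Myh4 had signals of at least 539340 on every array. A change is the aged mean minus the young mean of log2 signals, printed ± the standard error that limma gives, from 3 arrays per group (n = 3). "Passed" means a limma p under 0.05 adjusted by Benjamini-Hochberg across the 22519 probe sets tested. In whole muscle, fewer cells of a type and less RNA per cell cannot be told apart.

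Complex II, succinate dehydrogenase, oxidises succinate in the citric acid cycle and passes the electrons to ubiquinone. Complex III moves electrons from ubiquinol to cytochrome c and pumps protons, complex IV, cytochrome c oxidase, hands them to oxygen, and complex V, the ATP synthase, uses the proton gradient to make ATP. Skeletal muscle fibres differ in their content of these complexes, with slow and fast oxidative fibres being rich in mitochondria, and complex IV has muscle-type and ubiquitous versions of several subunits.

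Nuclear-encoded subunits are known to share promoter motifs for a small set of transcription factors, and the promoters of members with the lowest p of each complex that had an entry are shown for that reason. RefSeq promoter windows on GRCm38.p6, from 250 bases before to 50 bases after the start of the gene, were found for 35 of the 47 members. The table lists 2 windows for 3 of them, and the first was used. The window began at the outer end of the gene in 29 members and at a start inside the gene in 6. The 250 bases before the start are given here for Sdhd (chr9:50603850-50604099, minus strand), Uqcrh (chr4:116075071-116075320, minus strand), Cox7a2 (chr9:79759854-79760103, minus strand) and Atp5o (chr16:91931631-91931880, minus strand). Capitals mark matches to the motifs of NRF-1 (GCGCA, any base, then GCGC) and of the ETS family, which includes GABPA (CCGGAAG), on either strand.
Sdhd: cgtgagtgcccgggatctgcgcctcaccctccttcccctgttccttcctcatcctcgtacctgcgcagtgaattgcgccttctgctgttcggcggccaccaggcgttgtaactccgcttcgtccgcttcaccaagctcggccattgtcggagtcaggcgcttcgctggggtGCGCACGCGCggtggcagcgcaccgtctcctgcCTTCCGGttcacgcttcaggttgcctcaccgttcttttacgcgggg
Uqcrh: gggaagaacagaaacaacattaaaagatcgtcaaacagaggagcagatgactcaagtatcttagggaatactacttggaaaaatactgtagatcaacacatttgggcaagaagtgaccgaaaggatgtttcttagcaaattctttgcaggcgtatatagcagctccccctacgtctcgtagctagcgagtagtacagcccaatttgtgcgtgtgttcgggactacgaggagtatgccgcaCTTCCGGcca
Cox7a2: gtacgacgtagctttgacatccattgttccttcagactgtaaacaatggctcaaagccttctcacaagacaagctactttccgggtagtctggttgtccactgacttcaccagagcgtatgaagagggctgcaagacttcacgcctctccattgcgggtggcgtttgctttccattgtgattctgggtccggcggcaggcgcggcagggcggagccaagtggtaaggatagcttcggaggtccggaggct
Atp5o: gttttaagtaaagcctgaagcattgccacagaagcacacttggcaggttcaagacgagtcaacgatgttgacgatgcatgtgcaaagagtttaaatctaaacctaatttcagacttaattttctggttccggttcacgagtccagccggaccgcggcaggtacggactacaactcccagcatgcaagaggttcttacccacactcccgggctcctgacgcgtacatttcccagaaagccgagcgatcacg

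In the Sdhd promoter the NRF-1 match lay 79 to 70 bases before the start and the ETS match 46 to 40 bases before it. The Uqcrh promoter held an ETS match 10 to 4 bases before the start. In Atp5o an NRF-1 match lay just after the start, outside the stretch shown, at bases 10 to 19 of the gene. The Cox7a2 window held neither motif, and it belongs to a start 11569 bases inside the outer end of the gene. Over the whole windows the NRF-1 motif was found in 9 of 35 members (25.7%) against 4.78% of 27025 gene promoters. The ETS motif was present in 12 of 35 (34.3%) against 9.12%, the motif of ERR alpha (TCAAGGTCA) in 2 of 35 (5.71%), Atp5g3 and Sdhd, against 0.407%, and the YY1 motif (AAGATGGCG) in Atp5j2 alone (2.86%) against 1.49%. A GC box (GGGCGG) was about as frequent in members as in all promoters, at 40.0% against 35.9%, and a TATA box (TATAAA) at 11.4% against 14.2%. Both strands were searched, motifs could overlap, and a match is a description of the sequence only. The members with an NRF-1 match were spread over the changes described next: Atp5o passed, and Sdha and Cox6a1 were slightly higher in aged muscle by their means.

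Transcript signals of most members were somewhat lower in aged than in young muscle, and a single member passed the test. Of the 44 members that passed the filter, 40 had a negative change, and the median change was -0.40, against 0.0079 over all tested probe sets, where 49.5% were negative. After quantile normalization 36 of the 44 were negative and after median centring 41. Only Atp5o, a stalk subunit of the ATP synthase, passed, and 43 did not. This is 1 of 44, and among all tested probe sets 1.05% passed, 0.742% as lower and 0.311% as higher. On 19 of the 44 members (43.2%) all aged arrays lay below all young arrays, against 8.74% of all tested probe sets, and on 0 of them all aged arrays lay above, against 7.41%. An unadjusted p under 0.05 with a lower aged mean was seen for 17 members and with a higher mean for 0, against 5.61% and 4.43% of all tested probe sets. The mean log2 signals of the members ran from 10.15 to 19.67, and all but 3 of the 44 were at 12 or more. Bright probe sets had lower changes in general: the median was -0.0975 at mean log2 signals of 12 to 14, -0.18 at 14 to 16 and -0.17 above 16. The members' medians in those ranges were -0.47 over 11 genes, -0.40 over 12 and -0.36 over 18. In the same ranges 57.9%, 64.6% and 74.1% of all tested probe sets were negative, against 10 of 11, 11 of 12 and 17 of 18 members. An unadjusted limma p under 0.05 with a lower aged mean was also more frequent among bright probe sets. It was seen for 390 of 2825, 177 of 824 and 62 of 282 of them, so the shares over all tested probe sets understate the background for the members.

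**Figure D1:**
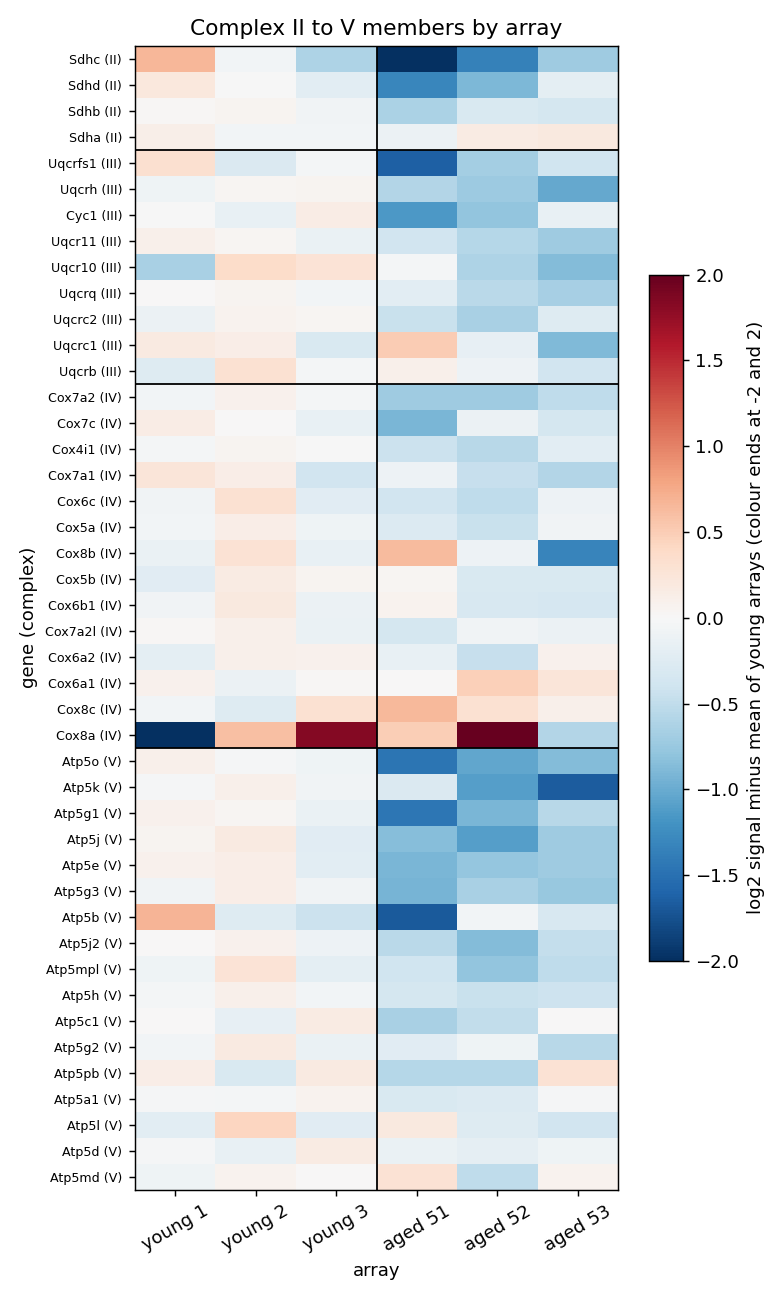
Log2 signal of each of the 44 measured members on each array, as the difference from the mean of the 3 young arrays (colour scale from -2 to 2). Rows are genes grouped by complex and ordered by change, and columns are arrays. Most rows are blue on the aged arrays, with the complex IV block palest, and Cox8a varied widely within both groups.

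The aged arrays were not lowest on the same genes. The median difference of the members from the young mean was -0.37 on aged replicate 51, -0.50 on 52 and -0.38 on 53, and on the young arrays it lay between -0.07 and 0.08. Aged replicate 51 was the lowest aged array for 18 members, 52 for 12 and 53 for 14. All 4 complex II genes were lowest on replicate 51, and 6 of the 9 complex III genes were lowest on replicate 53. Replicate 51 shared its fluidics station with the 3 young arrays, and replicates 52 and 53 were washed on another. Against the young arrays on the first station alone, the median of the members was -0.37 with 34 of 44 negative, from a fit with a single aged array that takes the spread of aged muscle from the young arrays. There Atp5o, Atp5g1, Cyc1, Sdhd and Uqcrfs1 passed. The log2 ratio of 3 prime to 5 prime control signal, a sign of RNA quality, lay between 1.71 and 1.77 on the young arrays and was 2.11, 2.00 and 2.86 on aged replicates 51, 52 and 53. With this ratio as a covariate the median was -0.48 and 0 members passed, and the adjusted p of Atp5o was 0.0802. The ratio did not overlap between the groups, so age and RNA quality cannot be told apart by any fit with this covariate.

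**Figure D2:**
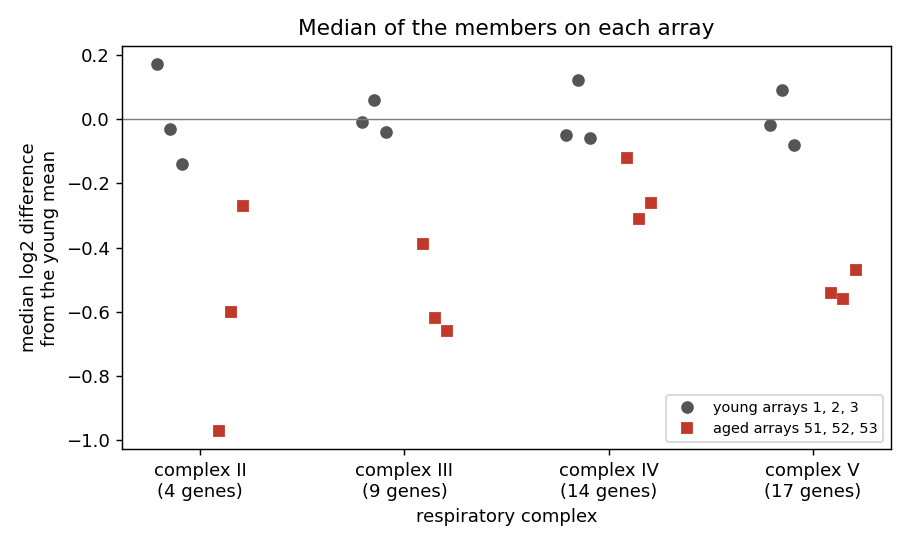
Median over the members of each complex of the log2 difference from the young mean, a point per array (young arrays 1, 2 and 3 as circles, aged arrays 51, 52 and 53 as squares, left to right). In each complex the 3 aged points lie below the 3 young points, by most in complexes II, III and V, and the aged points of complex II are spread from -0.97 to -0.27.

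By complex, the medians were -0.61 for complex II (4 genes), -0.51 for complex III (9 genes), -0.23 for complex IV (14 measured genes) and -0.56 for complex V (17 genes). All genes of complexes III and V had a negative change as deposited, with Atp5a1, Atp5d and Atp5md turning positive after quantile normalization. Aged arrays lay below young arrays on 2 of 4, 6 of 9, 2 of 14 and 9 of 17 genes in complexes II, III, IV and V. Over all tested probe sets this share was 8.74%, and in complex IV it was 14.3%. The difference between complexes was not tested. On the first station alone the medians of complexes II, III, IV and V were -0.97, -0.39, -0.12 and -0.54, and after quantile normalization that of complex IV was -0.07.

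**Figure D3:**
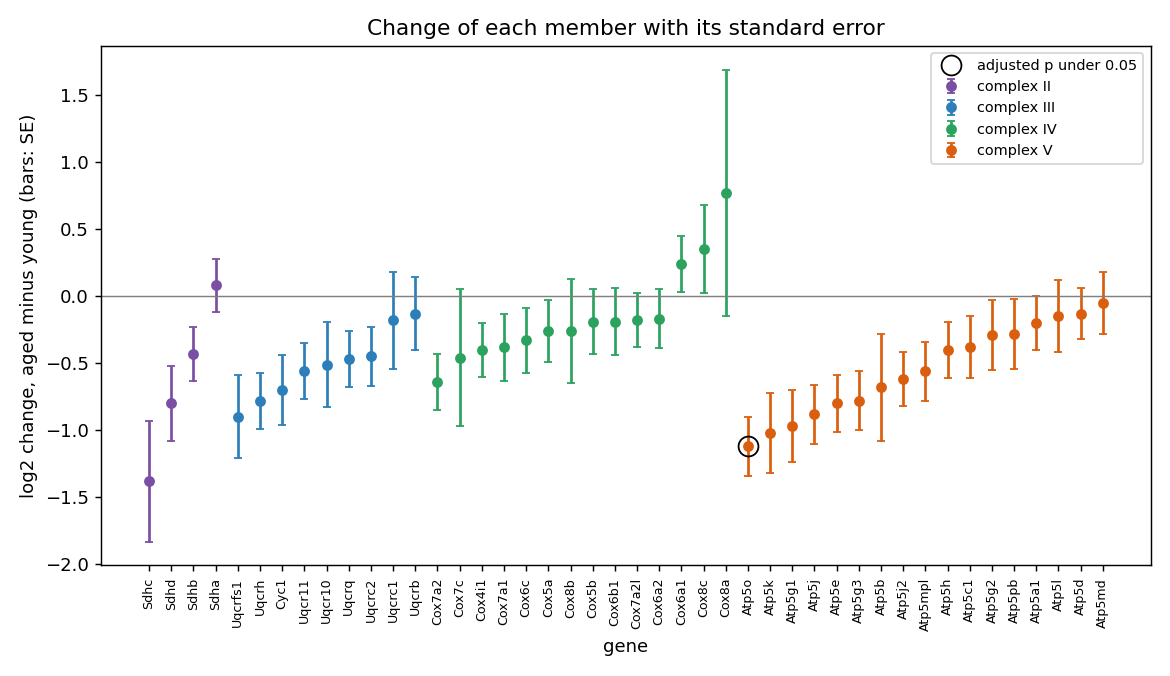
Change of each measured member (log2, aged minus young) with limma's standard error as bars, coloured by complex and ordered within it. Atp5o, circled, is the only member with an adjusted p under 0.05, and Sdha, Cox6a1, Cox8c and Cox8a lie above 0.

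In complex II 3 of 4 genes had a negative change by their brightest probe sets. Sdhc, an anchor that helps bind heme and ubiquinone, had signals of 6234, 3773 and 2568 on young arrays 1, 2 and 3 and of 928, 1530 and 2391 on aged arrays 51, 52 and 53. The groups did not overlap, but young replicate 3 and aged replicate 53 were close, and the change of -1.38 ± 0.45 did not pass (adjusted p = 0.274). Sdhd, the other anchor, had signals of 25715, 21999 and 19082 in young and 8940, 11866 and 19360 in aged muscle (-0.80 ± 0.28, adjusted p = 0.321), with aged replicate 53 inside the young range. For Sdhb, the iron-sulfur subunit, young signals were 63467, 64539 and 59333 and aged signals 40345, 50786 and 48750 (-0.43 ± 0.20, adjusted p = 0.497). Its groups did not overlap. Sdha, the flavoprotein that oxidises succinate, was at 42481, 37546 and 37726 in young and 36173, 43744 and 44990 in aged muscle, a change of 0.08 ± 0.20 that became -0.03 after median centring. The brightest probe sets of the 4 genes ranged from -1.38 to 0.08, and 0 of 4 passed. The second probe sets of Sdhc, Sdhd and Sdha were at -0.48, 0.15 and -0.39, so the order of the anchors and the catalytic subunits differed between probe sets.

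In complex III, Uqcrfs1, the Rieske iron-sulfur protein, and Cyc1, cytochrome c1, carry the electrons. Uqcrfs1 had young signals of 28074, 18396 and 21884 and aged signals of 7232, 14027 and 17013 (-0.90 ± 0.31, adjusted p = 0.301). Cyc1 was at 99911, 91323 and 112289 in young and 45245, 58148 and 91309 in aged muscle (-0.70 ± 0.26, adjusted p = 0.362). In both the groups did not overlap, replicate 51 was the lowest and replicate 53 lay just under the young range. Among the small subunits Uqcrh and Uqcr11 the order of the aged arrays was the other way. Uqcrh, the hinge protein next to cytochrome c1, had the lowest p of the complex: signals were 22622, 24604 and 24909 in young and 15970, 14473 and 11880 in aged muscle, a change of -0.78 ± 0.21 (adjusted p = 0.143). Uqcr11 followed, with 17438, 16674 and 14843 against 12458, 10965 and 9934 (-0.56 ± 0.21, adjusted p = 0.387). Both were lowest on replicate 53. Uqcrq (-0.47 ± 0.21), the core protein Uqcrc2 (-0.45 ± 0.22) and Uqcr10 (-0.51 ± 0.32) had intermediate changes, and the other core protein Uqcrc1 (-0.18 ± 0.36) and Uqcrb (-0.13 ± 0.27) overlapped between groups. With the station as a covariate the age difference rests on aged replicate 51 alone, the lowest array for Uqcrfs1, and there Uqcrfs1 was at -1.63 (adjusted p = 0.0397) and Uqcrc1 and Uqcrb at 0.50 and 0.10.

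Complex IV had 14 measured members, of which 11 were negative and 0 passed. The 4 subunits with a gene of their own in the list, Cox5a, Cox5b, Cox6c and Cox7c, ranged from -0.46 to -0.19, and their groups overlapped. The low end was Cox7c, whose tested probe set was the dimmest of the measured members, with signals of 1478, 1337 and 1199 in young and 704, 1227 and 1048 in aged muscle (-0.46 ± 0.51, adjusted p = 0.793). Cox6c had signals of 325543, 418491 and 289396 in young and 259631, 239407 and 318275 in aged muscle (-0.33 ± 0.24, adjusted p = 0.677). The isoform families held the other 10 measured members. Cox4i1, the usual form of the regulatory subunit 4, was at 108673, 116029 and 111621 in young and 83315, 76539 and 96497 in aged muscle (-0.40 ± 0.20, adjusted p = 0.538), and the groups did not overlap. Its alternative form Cox4i2, known from lung, did not pass the filter, with signals of 126 to 412 in young and 437 to 688 in aged muscle. Its aged arrays all lay above the young arrays, at dim signals that were not tested. The testis form Cox6b2 was likewise dim, at 77 to 687 in young and 73 to 105 in aged muscle, as was Cox7b2, at 65 to 1379 and 138 to 629.

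Subunits 6a, 7a and 8 each have a form found in heart and skeletal muscle (Cox6a2, Cox7a1 and Cox8b) and a ubiquitous form (Cox6a1, Cox7a2 and Cox8a). Cox7a2 had the lowest p of the complex, with signals of 213821, 235696 and 216848 in young and 135346, 136177 and 155831 in aged muscle (-0.64 ± 0.21, adjusted p = 0.261), and its groups did not overlap. Its muscle partner Cox7a1 was at 16016, 14811 and 10326 against 12605, 9835 and 8938 (-0.38 ± 0.25, adjusted p = 0.642), with overlapping groups. For subunit 6a the ubiquitous form Cox6a1 was at 83683, 72824 and 79906 in young and 78757, 109122 and 92590 in aged muscle (0.24 ± 0.21, adjusted p = 0.736). These aged values were higher on 2 of 3 arrays than every young value. The muscle form Cox6a2 was at 85672, 104945 and 104412 against 88365, 71371 and 103452 (-0.17 ± 0.22, adjusted p = 0.819), which became 0.04 after quantile normalization.

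Subunit 8 was the noisiest family. Cox8a had signals of 632, 5160 and 12243 in young and 4793, 17936 and 2280 in aged muscle, so that its change of 0.77 ± 0.92 (adjusted p = 0.812) rested on young replicate 1 and became -0.45 without it, and -0.05 without aged replicate 52. Cox8b was at 28142, 37836 and 27803 against 48132, 28689 and 12407 (-0.26 ± 0.39, adjusted p = 0.846), with the highest and the lowest value both on aged arrays. Cox8c, a testis form, was at 2380, 2069 and 3031 against 3845, 3049 and 2654 (0.35 ± 0.33, adjusted p = 0.756). The ubiquitous subunit Cox6b1 was at 565979, 683891 and 548736 against 628806, 480260 and 471060 (-0.19 ± 0.25, adjusted p = 0.827). Cox7a2l, which helps join complexes III and IV in supercomplexes, was at 66087, 69191 and 59266 against 50752, 61657 and 59356 (-0.18 ± 0.20, adjusted p = 0.791). None of these groups was separate.

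Whether the muscle and the ubiquitous forms changed unequally was tested on the log2 ratio of their signals within each array. The ratio of Cox6a2 to Cox6a1 was lower in aged muscle by a difference of -0.41, with SDs of 0.25 in young and 0.45 in aged muscle (exact two-sided permutation p = 0.3). For Cox7a1 over Cox7a2 the difference was 0.26 (SDs 0.33 and 0.35, exact permutation p = 0.5), and for Cox8b over Cox8a it was -1.03 (SDs 2.16 and 1.35, exact permutation p = 0.5). After Benjamini-Hochberg adjustment over the 3 pairs each p was 0.5, and 3 against 3 arrays cannot go below 0.1. The 3 differences did not point in one direction, and the last turned to 0.12 without young replicate 1.

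**Figure D4:**
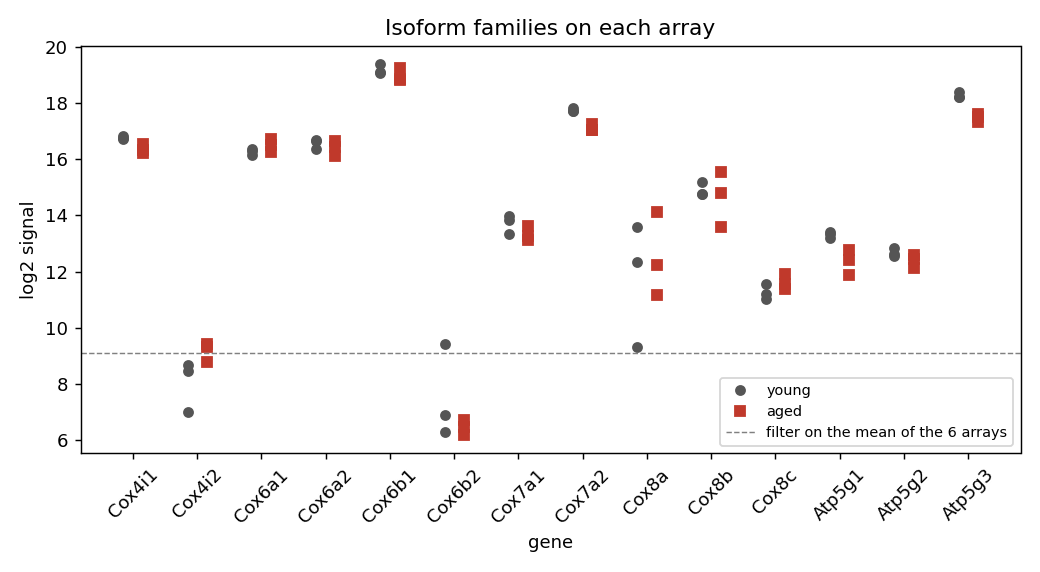
Log2 signal of the isoform families of complex IV and of the c subunit of complex V (Atp5g1, Atp5g2, Atp5g3) on each array, young as circles and aged as squares. The dashed line is the filter at 9.08, which applies to the mean of the 6 arrays. Cox7a2, Cox4i1, Atp5g1 and Atp5g3 show separate groups, with aged below young. Cox4i2, which did not pass the filter, shows aged above young, and Cox8a spans several log2 units in both groups.

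Complex V, the ATP synthase, held the called member. Atp5o, the protein that fixes the catalytic head to the peripheral stalk and gives oligomycin sensitivity, had signals of 31724, 29213 and 27945 in young and 10773, 14473 and 16158 in aged muscle. The groups were well apart, and Atp5o fell by 1.12 ± 0.22 on the log2 scale, 2.17-fold (adjusted p = 0.0299). When any young array, or aged replicate 51 or 52, was left out, it no longer passed (adjusted p 0.0647 to 0.184), and after median centring its adjusted p was 0.114. Atp5j, another stalk subunit, followed with 186790, 204859 and 153580 against 100487, 84528 and 110449 (-0.88 ± 0.22, adjusted p = 0.103). The stalk subunits Atp5h (-0.40 ± 0.21) and Atp5pb (-0.28 ± 0.26) completed that group, whose 4 members had a median of -0.64. On 3 of the 4, all but Atp5pb, the aged arrays lay below the young arrays, against 8.74% of all tested probe sets.

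The c subunits form the ring that turns with the proton flow, and the 3 genes encode the same mature protein. Atp5g1 was at 10883, 10486 and 9337 in young and 3764, 5405 and 6988 in aged muscle (-0.97 ± 0.27, adjusted p = 0.177). Atp5g3 was at 302947, 348528 and 303652 against 166256, 203004 and 187823 (-0.78 ± 0.22, adjusted p = 0.162). Both had separate groups. Atp5g2 was at 6257, 7420 and 5962 against 5558, 6122 and 4431 (-0.29 ± 0.26, adjusted p = 0.739), and its groups overlapped. Signals of different probe sets are not set against each other as levels.

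In the catalytic head and central stalk 5 of 5 genes were negative as deposited, with a median of -0.38. Atp5e, the epsilon subunit, was at 19710, 20463 and 16062 against 9897, 10934 and 11444 (-0.80 ± 0.21, adjusted p = 0.143), with separate groups. The catalytic beta subunit Atp5b (-0.68 ± 0.40), the gamma subunit Atp5c1 (-0.38 ± 0.23), the alpha subunit Atp5a1 (-0.20 ± 0.20) and the delta subunit Atp5d (-0.13 ± 0.19) all overlapped between groups. Of the 5 remaining membrane subunits Atp5k, which links synthase dimers, had the largest change, with 176500, 191695 and 171094 in young and 147028, 84108 and 56407 in aged muscle (-1.02 ± 0.30, adjusted p = 0.206). Replicate 51 was the aged array nearest to the young ones: without it Atp5k passed at -1.38 (adjusted p = 0.0183), and with it as the only aged array Atp5k was at -0.29 (adjusted p = 0.56). With the 3 prime to 5 prime ratio as a covariate Atp5k was at -0.38 (adjusted p = 0.664). Replicate 51 is the only aged array of its station, so station and sample cannot be told apart. Atp5j2 (-0.62 ± 0.20) and Atp5mpl (-0.56 ± 0.22) also had separate groups, and Atp5l (-0.15 ± 0.27) and Atp5md (-0.05 ± 0.23) did not.

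Several members were measured by more than a single probe set, and these did not give the same size of change. Of 26 genes with several tested probe sets 18 had all of them in a single direction, and for 15 the median of the other probe sets was lower than the brightest. A second probe set of Atp5h had signals of 36971, 37690 and 30710 in young and 16984, 16632 and 17177 in aged muscle, a change of -1.05 ± 0.20 that passed (adjusted p = 0.0238), where the brightest was at -0.40. A second probe set of Cox7a2 had 126706, 134940 and 108837 against 62780, 55449 and 46712, a change of -1.17 ± 0.21 that passed (adjusted p = 0.0155), where the brightest was at -0.64. In both the groups were far apart.

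The same pattern, without a call, was seen for Cox6c (-0.86 against -0.33 for the brightest), Uqcrc2 (-0.87 against -0.45), Uqcrb (-0.68 against -0.13) and Atp5a1 (-0.83 against -0.20). The opposite held for Atp5o (-0.62 against -1.12), Sdhc (-0.48 against -1.38), Sdhd (0.15 against -0.80) and Uqcrq, whose second probe set was dim and at 1.59. Of the 38 tested probe sets that were not the brightest of their gene, 27 were negative and 2 passed, both lower. On 15 (39.5%) all aged arrays lay below all young arrays, against 8.74% of all tested probe sets. The 18 of them with a mean log2 signal of 14 or more had a median of -0.62, with 17 negative and 12 separate, and the 14 below 12 had a median of 0.11. Of the 44 brightest probe sets, 15 are designed against several transcripts of a gene (_a_at), 10 against transcripts shared with other genes (_s_at) and 3 are prone to cross-hybridisation (_x_at). Near-identical copies of these genes could therefore contribute to those signals.

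**Figure D5:**
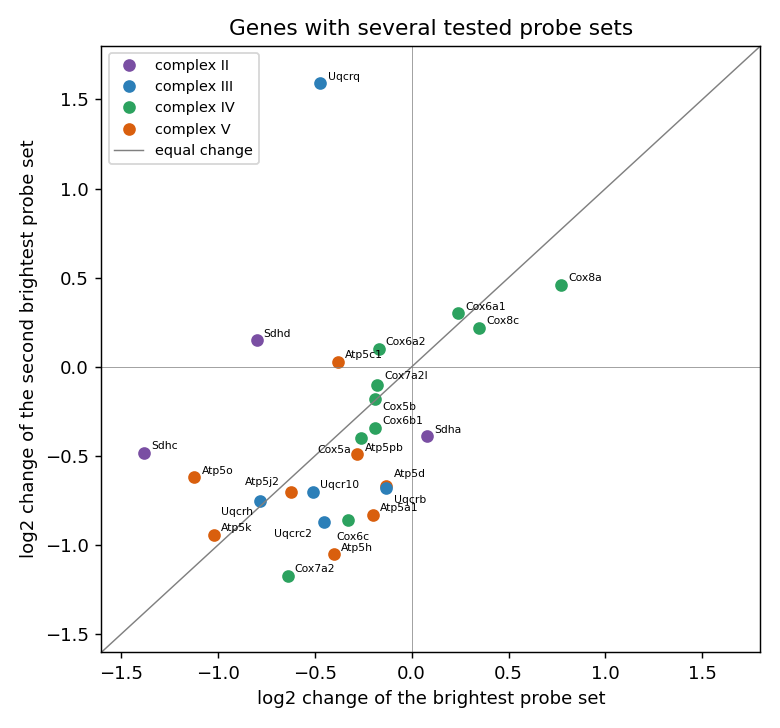
Change (log2, aged minus young) of the second brightest tested probe set against that of the brightest, for the 26 genes with several, coloured by complex. Points under the grey line had a more negative value in the second probe set, among them Atp5h, Cox7a2, Cox6c, Uqcrc2, Uqcrb and Atp5a1, and Uqcrq, Sdhd and Sdhc lie far above it.

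Other genes of the pathway were read from the same fit. Complex I subunits were taken by symbol alone, as genes beginning with Ndufa, Ndufb, Ndufc, Ndufs or Ndufv and a number. The list thus includes Ndufa4 (-0.46 ± 0.25) and Ndufa4l2, and whether their products belong to complex I was not checked. Of 32 measured 30 had a negative change, 0 passed, and the median was -0.37. On 10 the aged arrays lay below the young arrays, against 8.74% of all tested probe sets. Most of these genes were bright, like the members. At mean log2 signals of 12 to 14, 14 to 16 and 16 to 20, 57.9%, 64.6% and 74.1% of all tested probe sets were negative. The lowest p values were those of Ndufs4 (-0.72 ± 0.22), Ndufs1, which carries iron-sulfur clusters (-0.83 ± 0.28), and Ndufa1 (-0.64 ± 0.22), with adjusted p of 0.226, 0.286 and 0.311. Of 31 measured assembly factors 17 were negative and 0 passed (median -0.03). The complex IV assembly factor Coa7 (-1.40 ± 0.42, adjusted p = 0.209), the complex III factor Ttc19 (1.00 ± 0.42, adjusted p = 0.45) and Cox18 (-1.09 ± 0.55, adjusted p = 0.539) had the lowest p. Of 11 measured genes for electron carriers and quinone synthesis 7 were negative and 0 passed (median -0.03). Cycs, cytochrome c, was at -0.46 ± 0.23 (adjusted p = 0.543) and Coq10b at -0.81 ± 0.39 (adjusted p = 0.52), both with separate groups, and Coq2 was at 0.33 ± 0.32 (adjusted p = 0.755). Of 21 measured regulators 7 were negative and 0 passed (median 0.13). Ppara (1.96 ± 0.94, adjusted p = 0.517), Mterf1a (2.08 ± 1.01) and Esrrb (1.30 ± 0.63, both adjusted p = 0.527) had the lowest p. The coactivator Ppargc1a was at -0.37 ± 0.42, Nrf1 at 1.11 ± 0.97, Gabpa at 0.09 ± 0.49, Esrra at 0.16 ± 0.32 and Tfam at 0.43 ± 0.36. Some of these changes rest on signals near the floor, below the filter's 540. Young signals were 142, 1352 and 198 for Ppara and 468, 779 and 67 for Mterf1a, which passed the filter only through their aged arrays. Esrrb had a young signal of 327 and Nrf1 of 102. The regulator median includes these genes. The difference between these lists and the subunits was not tested, and the median of assembly factors was -0.28 on the first station alone and -0.21 with the 3 prime to 5 prime ratio as a covariate, where that of complex IV was -0.12 and -0.20. The 13 subunits encoded in mitochondrial DNA were not analysed here, since 0 of them are named in the platform table.

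Markers of fibre type and of other cells moved with age on the same arrays, and their part in the result was not tested. Slow-twitch fibre genes were lower on 10 of 10 markers, and 7 passed, against 0.742% of all tested probe sets that passed as lower. Their summed signal ranged from 167961 to 199395 in young and from 29446 to 34805 in aged muscle. Myh2, of fast oxidative fibres, fell as well (-2.38 ± 0.25, adjusted p = 0.000497), the only call among 12 skeletal muscle markers. All 12 had a negative change, and the median was -0.64, against -0.40 for the members. On 9 the aged arrays lay below the young arrays, against 8.74% of all tested probe sets. Most of the 12 had mean log2 signals of 16 to 20, where 74.1% of all tested probe sets were negative. Among fast-fibre genes Pvalb was at -0.95 ± 0.24, Mylpf at -0.92 ± 0.27, Myh1 at -0.59 ± 0.23 and Myh4 at -0.15 ± 0.26. The summed signal of those 12 was 3604184 to 4481971 in young and 2544803 to 3005761 in aged muscle. Of the 6 adipocyte markers measured 0 had a negative change, and 4 passed as higher, against 0.311% of all tested probe sets. Their sums were 78262 to 93629 in young and 166015 to 300198 in aged muscle. Fabp4 alone made up most of these sums, at 63548 to 75001 in young and 115467 to 196589 in aged muscle. Lep (0.20 ± 0.36) and Cidec (1.63 ± 0.60) did not pass, and their groups overlapped. Of 7 fibroblast markers 7 had a negative change, and 4 (Col1a1, Col3a1, Dpt and Mfap5) passed as lower, against 0.742% of all tested probe sets. Lum (-1.91 ± 0.54), Dcn (-0.73 ± 0.20) and Pdgfra (-0.23 ± 0.31) did not pass, and the groups of Pdgfra overlapped. The sums of the 7 were 536368 to 811762 in young against 98945 to 104379 in aged muscle. Col1a1 (221270 to 501199) and Col3a1 (148680 to 161853) made up most of the young sums. Macrophage sums (4 measured markers) were 54927 to 74205 against 61100 to 97670 and endothelial sums (3 markers) 7001 to 7758 against 5178 to 9540, with 0 passing in either. Csf1r made up most of the macrophage sums, at 43750 to 59248 in young and 50902 to 77293 in aged muscle. Among brown fat markers Ucp1 did not pass the filter, and the other 2 had sums of 1108 to 2294 and 1495 to 3836. Cardiac markers (2 of 4 measured) were at 184 to 2316 and 1050 to 3195, and 0 of the 2 blood markers with a probe set passed the filter.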

How the data were processed

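Total RNA of gastrocnemius was labelled and hybridised to Affymetrix Mouse430_2 arrays, per the labels' protocols and the file headers, at 1 array per sample. Each probe set has a single deposited intensity on a linear scale, from MAS5 run by the authors per the submitters' processing notes, with settings not stated there. The run settings deposited with each array (other values, as text) were used for the fluidics station only. Intensities were taken to log2 as deposited, 64 control probe sets were left out, and the 22519 probe sets with a mean log2 signal at or above the median of 9.08 (a signal of 540) were tested. The fit used R 4.3.3 and limma 3.58.1 (lmFit, eBayes with trend, two-sided, Benjamini-Hochberg over all tested probe sets, threshold 0.05). Isoform ratios had an exact two-sided permutation test. The steps were tested on simulated data, with changes placed at random among the tested probe sets. Of changes of 2-fold, 4-fold and 16-fold, 3.28%, 36% and 62.3% were called, and 6.65% of all calls were false. These shares are for the tested probe sets as a whole, with a median standard error of 0.559. At mean log2 signals of 12 to 14, 14 to 16 and 16 to 20, where most members lay, it was 0.282, 0.238 and 0.229. The shares therefore do not give how often a change of a member would be called. Lists are described by counts and medians, with no set test.

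Genes were named from the platform table (34958 probe sets with 1 symbol, 932 with several, left unnamed, and 9160 not listed). The members and lists were chosen with earlier results of these data known. Per-array values are given for the called member, the 4 members of each complex with the lowest p, the isoform families and members with a positive change. In each pathway list the 3 genes with the lowest p are named. The per-array values of Atp5k, Cox7c and second probe sets, the regulators beyond those 3 and the muscle markers named were chosen after values were seen. Marker lists were skeletal muscle, slow-twitch fibres, adipocytes, brown adipocytes, cardiac muscle, fibroblasts, blood, macrophages and endothelium. Alternatives were other normalization, filters, a pseudocount of 219, other spread estimates, covariates for station and RNA quality, other choices of probe set, and each array left out in turn. Tables and figures used Python 3.11.15 with numpy 2.4.6, pandas 2.3.3 and matplotlib 3.10.9.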

Additional observations from a re-analysis of the deposited data

How the results depend on the processing

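No paired analysis was possible because the groups share no replicate number. The number of arrays limits the precision: the median standard error over all tested probe sets was 0.559. It was 0.282, 0.238 and 0.229 at mean log2 signals of 12 to 14, 14 to 16 and 16 to 20, where most members lay. The median change of the members stayed negative in every alternative, from -0.25 to -0.52, and the cause of each shift was not tested. Over the tested probe sets as a whole the median change was 0.01, and it moved to -0.11 with median centring and to -0.03 with quantile normalization.

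After quantile normalization the medians were -0.25 for all members, -0.07 for complex IV, -0.42 for complex V and -0.20 for complex I, and Atp5a1 was at 0.02, Atp5d at 0.01, Atp5md at 0.06 and Cox6a2 at 0.04. After median centring they were -0.52 for all members, -0.63, -0.34 and -0.68 for complexes III, IV and V, 0 members passed and Sdha was at -0.03. With the stricter filter 3 members passed. Without the trend 21 probe sets and 0 members passed, and in an unmoderated linear model 0 and 0, where 2262 probe sets had an unadjusted p under 0.05 in limma. With the station as a covariate 2 members passed, and on the first station alone 5 members and 365 probe sets. Both rest on aged replicate 51 as the only aged array of its station, and in both the medians of complexes II, III and IV were -0.97, -0.39 and -0.12, that of assembly factors -0.28 and of regulators 0.42, and Atp5l was at 0.20, Atp5md at 0.28, Cox5b at 0.03, Cox6b1 at 0.08, Cox8b at 0.64, Sdha at -0.12, Uqcrb at 0.10 and Uqcrc1 at 0.50. On the first station alone the ratio of Cox8b to Cox8a was at 0.15. With the 3 prime to 5 prime ratio as a covariate 138 probe sets and 0 members passed, the medians were -0.48 for all members, -0.94 for complex II, -0.77 for complex V, -0.60 for complex I and -0.33 for electron carriers, and Atp5l was at 0.05, Cox8b at 0.79, Sdha at -0.02, Uqcrb at 0.10 and Uqcrc1 at 0.52.

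With the mean of all probe sets of a gene 145 of 15565 genes and probe sets passed, with Cox7a2 the called member, Sdha at -0.22 and Uqcrq at 0.48. Without _s_at, _x_at and _a_at probe sets 136 probe sets and 2 members (Atp5h and Cox7a2) passed, with 33 members tested. The medians were -0.49 for all members, -0.68 for complex III, -0.68 for complex V and -0.54 for complex I, and Atp5c1 was at 0.03, Cox5b at 0.99, Cox6a2 at 0.10, Sdha at -0.39, Uqcr10 at 0.06 and Uqcrq at 1.59. With the second brightest probe set where a gene had several, an alternative chosen after seeing the data, 2 members passed and the medians were -0.49 for all members, -0.70 for complex III and -0.68 for complex V.

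With 1 array left out in turn, 124 to 342 probe sets and 0 to 4 members passed. Atp5o passed only without aged replicate 53, together with Atp5j, Cyc1 and Sdhd, and without aged replicate 51 Atp5k alone passed. The medians ranged from -0.30 to -0.13 for complex IV, -0.66 to -0.42 for complex V, -0.20 to 0.11 for electron carriers and 0.17 to 0.33 for regulators. Single genes that changed sign ranged from -0.45 to 1.69 (Cox8a), -0.32 to 0.07 (Atp5l), -0.26 to 0.02 (Uqcrb), -0.22 to 0.18 (Atp5md), -0.71 to 0.26 (Cox8b) and -0.52 to 0.17 (Uqcrc1), and the ratio of Cox8b to Cox8a from -2.03 to 0.12.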
